A study of Mus musculus with 6 samples.

Results

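The metallothioneins Mt1 and Mt2 were examined in kidney endothelial cells of 6 mice, together with Mt3 of the same family and the zinc response genes Mtf1 and Slc30a1. These 5 genes were taken by symbol from a table of 55487 genes, and 4 of them passed a filter of a mean of at least 1 FPKM (fragments scaled to exon length and to the fragments of the library), as did 14962 genes in all. Mt3 did not pass. The members were selected on their measured FPKM in these libraries: Mt1 was the one higher gene among 3 called in a limma fit of genes free of opposite-strand neighbours, with the mouse number as a block and a mean-variance trend, and Mt2 shared its direction. The group differences of the members are therefore given as a description, without a test. The other genes called in that fit, Ddx3y and Eif2s3y, were lower and are both Y-linked.

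The I-PpoI group was 3 mice that carried Cre recombinase under VE-cadherin and an I-PpoI gene behind a stop cassette, written in the genotype labels of mice 1, 2 and 3 as ROSA26-STOP-I-PpoI, ROSA27-STOP-I-PpoI and ROSA28-STOP-I-PpoI. The Control group was 3 wild-type littermates without these alleles. All 6 mice ate a high-fat diet, of which fat supplied 60% of the energy, begun at an age of 8 weeks and kept up for 4 weeks, so no group on normal chow was compared. I-PpoI is a homing endonuclease that cuts DNA, and the VE-cadherin promoter drives Cre in endothelium of the whole body and in some blood cells. Endothelial cells were captured on magnetic beads against CD31 after collagenase digestion of whole kidneys, and total RNA was sequenced as paired ends.

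Metallothioneins are small, cysteine-rich proteins that bind zinc and copper, buffer free metal and react with oxidants. When free zinc rises, the zinc-finger factor MTF1 enters the nucleus and binds metal response elements in the promoters of Mt1, Mt2 and Slc30a1. Mt1 and Mt2 are also switched on by glucocorticoids, cytokines and handling stress, and in kidney the proximal tubule is a well known site of their expression.

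The libraries differed before any gene was considered. Whole fragments recovered from the FPKM values numbered 1590957, 834149 and 13324303 in I-PpoI mice 1, 2 and 3, against 14081222 to 16954480 in the Control libraries. In I-PpoI mice 1 and 2, 68.2 and 70.6% of mitochondrial fragments lay on minus-strand genes, whereas I-PpoI mouse 3 had 0.0821% there and the Control libraries had 0.0473 to 0.0664%. Values were therefore also read on 3654 tested strand-clear genes, which have no opposite-strand neighbour nearer than 5 kb, and each FPKM was divided by its library's median-of-ratios factor over these genes to give a scaled FPKM. The factors were 0.707, 0.474 and 0.932 in I-PpoI mice 1, 2 and 3, against 1.45 to 1.62 in the Control libraries. All 12 endothelial markers were detected, and their summed scaled FPKM was 2790, 1400 and 1340 in I-PpoI mice and 1700, 2010 and 1760 in Control mice. Of the 7 strand-clear ones, 0 had a scaled log2 difference above 0. Their median was -0.5, where that of all strand-clear genes was -0.03. In I-PpoI mouse 3, 0 of the 12 were above the Control mean when scaled, with a median log2 difference of -0.31. The Y-linked transcript Ddx3y had 20, 0 and 0 fragments in I-PpoI mice, against 959 to 1672 in Control mice. Xist, the transcript of the inactive X chromosome of females, had 0, 70 and 4739 fragments in I-PpoI mice 1, 2 and 3, against 4, 0 and 0 in Control mice 1, 2 and 3. I-PpoI mice 2 and 3 thus had female-type and all Control mice male-type transcripts, and the part of sex in the values below was not tested.

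Mt1 encodes the isoform that was the more abundant of the pair in every Control library. It lies on the plus strand at chr8:94179082-94180327 (GRCm38, ENSMUSG00000031765), has 1246 bases of annotated exon and is strand-clear. It measured 27.5, 68.0 and 26.4 FPKM in the libraries of I-PpoI mice 1, 2 and 3, against 12.1, 13.9 and 11.1 FPKM in Control mice 1, 2 and 3. All 3 I-PpoI libraries were above all 3 Control libraries, and I-PpoI mouse 2 was the highest. The means were 40.6 ± 23.7 FPKM for I-PpoI mice and 12.4 ± 1.43 FPKM in Control mice (SD, n = 3 each), and the fitted difference in log2(FPKM + 1) was 1.5 (SE 0.44). The values rest on 55, 71 and 438 fragments in I-PpoI mice and on 244, 244 and 234 in Control mice. In these bulk samples, fewer cells of a type and less RNA per cell cannot be told apart.

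Mt2, the second widely expressed isoform, lies upstream of Mt1 on the same strand at chr8:94172664-94173568 (ENSMUSG00000031762). It has 588 bases of annotated exon. It measured 8.48, 95.4 and 26.7 FPKM in I-PpoI mice, against 4.42, 5.20 and 4.11 FPKM in Control mice. Again no I-PpoI library fell within the Control range, and I-PpoI mouse 1 came closest to it with 8 fragments behind its value (95% exact Poisson interval 3.66 to 16.7 FPKM, which covers counting error only). The means were 43.5 ± 45.8 FPKM for I-PpoI mice and 4.58 ± 0.558 FPKM in Control mice (SD, n = 3 each). The fitted log2 difference was 2.40 (SE 0.81). Mt1 and Mt2 were thus 2 of the 4 members measured above the filter whose groups did not overlap in the higher direction, where 2.24% of all genes tested had that pattern, and the members were chosen for it.

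The promoters of both genes and of the zinc exporter gene Slc30a1 are shown because they hold the letters at which MTF1 is known to bind. Each runs from 250 bases before to 30 bases after the RefSeq start site, 5′ to 3′ on the plus strand of GRCm38.p6. Mt1 is chr8:94178839-94179118, Mt2 is chr8:94172368-94172647 and Slc30a1 is chr1:191906531-191906810. Capitals mark each match to the core of the metal response element, TGCACNC or TGCGCNC, on either strand.
Mt1: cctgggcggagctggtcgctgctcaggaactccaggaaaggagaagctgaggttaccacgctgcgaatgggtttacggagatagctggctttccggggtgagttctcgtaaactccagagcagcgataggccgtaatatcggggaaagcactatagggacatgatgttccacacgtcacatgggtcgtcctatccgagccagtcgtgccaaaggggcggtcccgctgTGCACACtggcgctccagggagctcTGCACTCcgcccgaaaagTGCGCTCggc
Mt2: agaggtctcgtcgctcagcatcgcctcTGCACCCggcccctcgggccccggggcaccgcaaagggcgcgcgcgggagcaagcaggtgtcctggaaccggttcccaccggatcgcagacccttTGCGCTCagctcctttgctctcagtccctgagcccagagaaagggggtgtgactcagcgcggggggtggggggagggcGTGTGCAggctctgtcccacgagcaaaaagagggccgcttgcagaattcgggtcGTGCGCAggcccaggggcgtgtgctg
Slc30a1: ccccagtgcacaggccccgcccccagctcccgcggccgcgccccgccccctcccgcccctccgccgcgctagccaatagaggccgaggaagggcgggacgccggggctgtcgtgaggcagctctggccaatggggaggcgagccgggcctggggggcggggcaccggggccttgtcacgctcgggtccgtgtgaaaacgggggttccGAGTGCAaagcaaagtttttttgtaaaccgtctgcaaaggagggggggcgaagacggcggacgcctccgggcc
Mt1 held 3 cores, and 1.73% of 32851 RefSeq promoters of this length held at least as many. Mt2 held 4, as did 0.405% of promoters, and Slc30a1 held 1, as did 24.1%. In Mt1 the cores began at positions -23, 3 and 21 from the RefSeq start site, all on the plus strand. Bases outside the window were not searched, so cores there or positions from another start site are not covered. In Mt2 they began at -223 and -128 on the plus strand and at -50 and 5 on the minus strand. The promoters of Mt3 and Mtf1 held 0 cores in this window. A match of letters is a description of the sequence and was not tested as a binding site.

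**Figure D1:**
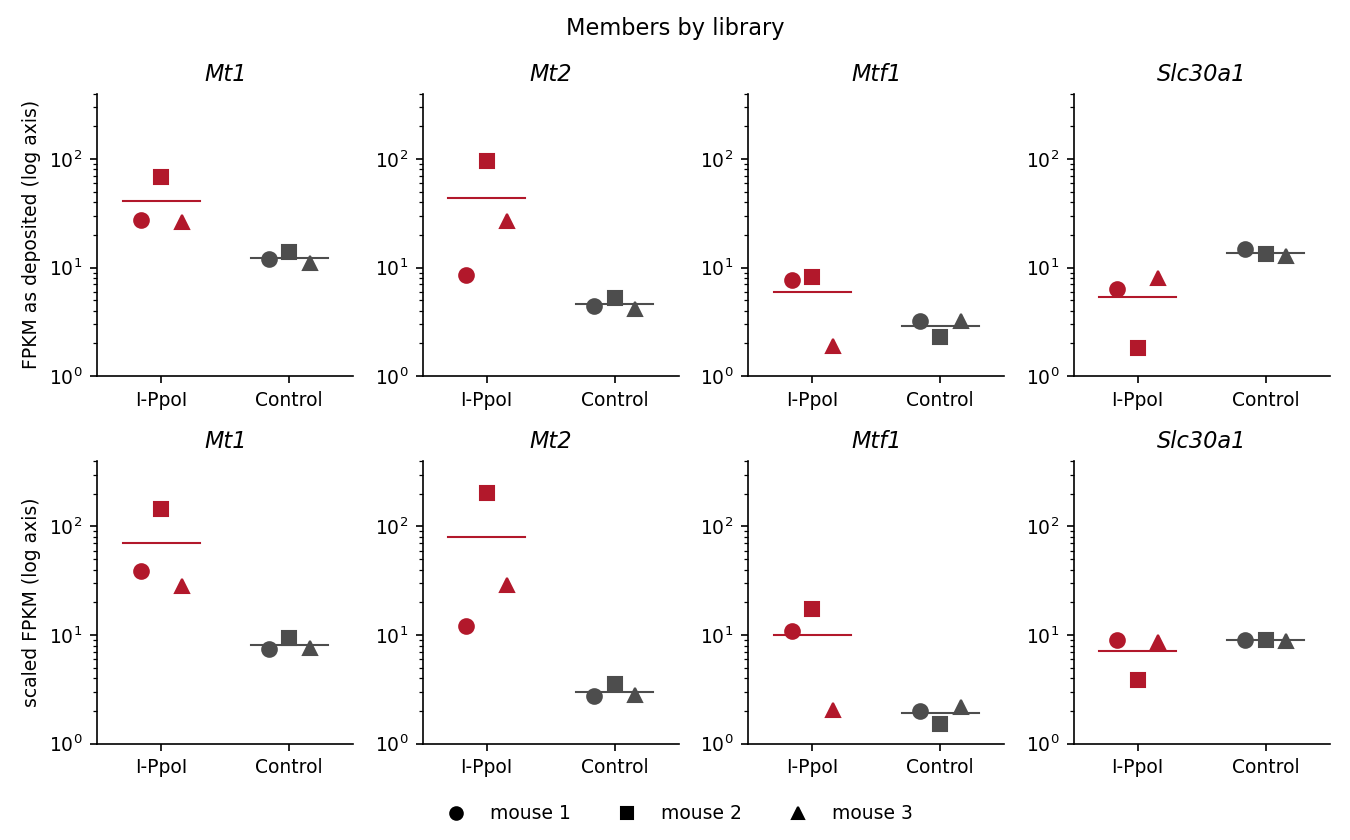
FPKM as deposited (top row) and scaled FPKM (bottom row) of Mt1, Mt2, Mtf1 and Slc30a1 on log axes, with 1 point per mouse and a line at each group mean. Mt1 and Mt2 were higher in all 3 I-PpoI mice on both scales, whereas I-PpoI mouse 3 lay among or near the Control mice for scaled Mtf1 and Slc30a1.

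The scaling widened the separation of both genes. Mt1 stood at 38.9, 144 and 28.3 scaled FPKM in I-PpoI mice 1, 2 and 3, against 7.47, 9.41 and 7.62 in Control mice. Mt2 stood at 12.0, 201 and 28.6 scaled FPKM in I-PpoI mice, against 2.72, 3.51 and 2.83 in Control mice. The groups did not overlap for either gene, a pattern that 5.5% of strand-clear genes and 9.65% of all genes tested showed in the higher direction on this scale. For Mt1 the fitted log2 difference over the strand-clear genes was 2.60 (SE 0.54).

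I-PpoI mouse 3 had the strand pattern of the Control libraries and nearly their total depth, and can be read without the shifted libraries. However, 48.2% of its fragments were mitochondrial, against 8.83 to 18.3% in Control mice. Its strand-clear fragments numbered 2296112, against 4016817 to 4958650 in Control mice. I-PpoI mouse 3 also differed from every Control mouse in Xist and Ddx3y. Its Mt1 value was 2.13 times the Control mean as deposited and 3.47 times when scaled. As background, 5.91% of strand-clear genes were above every Control library in I-PpoI mouse 3 as deposited and 24.1% when scaled. Further, 3.09% of strand-clear genes were at least 2 times the Control mean in this library as deposited and 6.57% when scaled. Its Mt2 value was 5.83 times the Control mean as deposited and 9.47 times when scaled, and 7.17 and 10.9% of all genes tested reached 2 times on these scales. With I-PpoI mice 1 and 2 left out, the log2 difference was 1.04 for Mt1 and 2.32 for Mt2 as deposited, and 1.68 for Mt1 over the strand-clear genes.

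The rank of a gene within its own library does not depend on a scaling factor. Mt1 was at the 92.0, 98.0 and 90.6th percentile of the strand-clear genes in I-PpoI mice 1, 2 and 3, against the 62.9, 68.8 and 64.5th in Control mice. Its lowest rank in an I-PpoI mouse was thus above its highest rank in a Control mouse. Set among the same genes, Mt2 was at the 74.2, 98.7 and 90.7th percentile in I-PpoI mice, against the 30.5, 39.8 and 32.0th in Control mice. Relative to the median FPKM of the endothelial markers in the same library, Mt1 was 0.433, 3.73 and 0.364 in I-PpoI mice, against 0.0751, 0.0888 and 0.0744 in Control mice. Relative to the median FPKM of the proximal tubule markers it was 1.76, 0.556 and 0.197 in I-PpoI mice, against 0.297, 0.215 and 0.32 in Control mice, and on this ratio I-PpoI mouse 3 lay below every Control mouse.

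**Figure D2:**
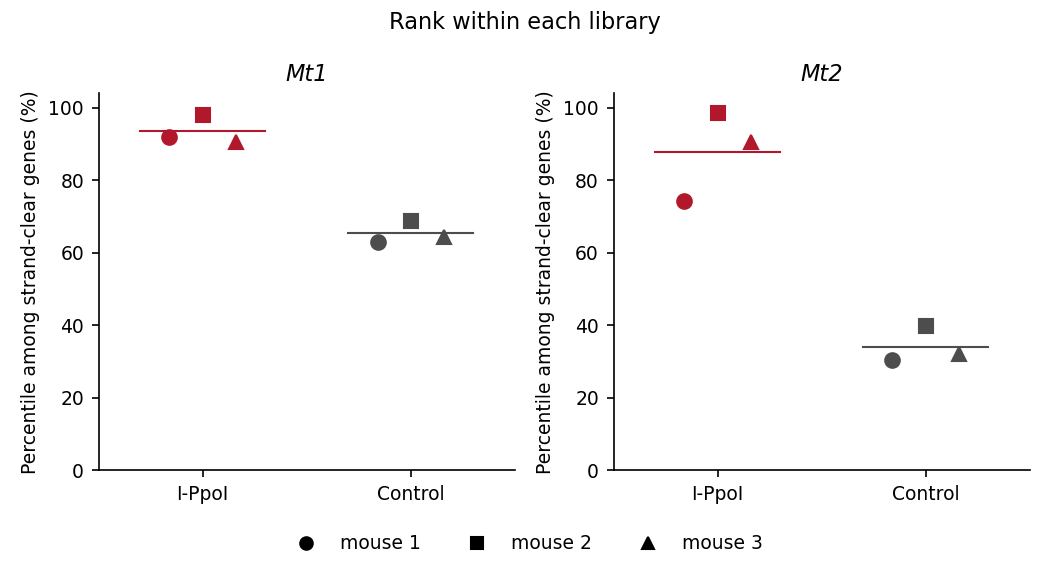
Percentile of the FPKM of Mt1 and Mt2 among the strand-clear genes of the same library, with 1 point per mouse and a line at each group mean. Mt1 lay between the 90.6 and 98.0th percentile in I-PpoI mice and between the 62.9 and 68.8th in Control mice.

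The balance of both isoforms differed among the I-PpoI libraries. Mt1 made up 87.3, 60.2 and 67.7% of the Mt1 and Mt2 fragments in I-PpoI mice 1, 2 and 3, against 85.3, 85.0 and 85.1% in Control mice. The 95% exact Clopper-Pearson intervals were 76.5 to 94.4, 50.7 to 69.1 and 63.9 to 71.3% in I-PpoI mice, and together spanned 80.3 to 89.2% in Control mice. I-PpoI mouse 1 was within the Control intervals, and I-PpoI mice 2 and 3 were below them. In I-PpoI mice 1 and 2 these fragments are only those counted on the annotated strand, and the part of the strand shift in the share was not tested there. Per base of annotated exon, the ratio of Mt1 to Mt2 FPKM was 3.24, 0.713 and 0.989 in I-PpoI mice, against 2.74, 2.68 and 2.69 in Control mice. This ratio rests on 1246 bases for Mt1, its whole gene span, and 588 for Mt2. Their first annotated transcripts have 549 and 511 bases. Counted on the annotated strand, Mt1 had more fragments than Mt2 in every library. A ratio under 1 therefore does not show that Mt2 was the more abundant isoform. In I-PpoI mice 1 and 2 the order is not settled, since a further 134 and 291 fragments lay on the opposite strand across Mt2. The transcripts are distinct enough to be counted apart, since the first annotated transcripts of Mt1 and Mt2 share no run longer than 20 bases and no other annotated transcript shares a 50-base window with either gene.

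**Figure D3:**
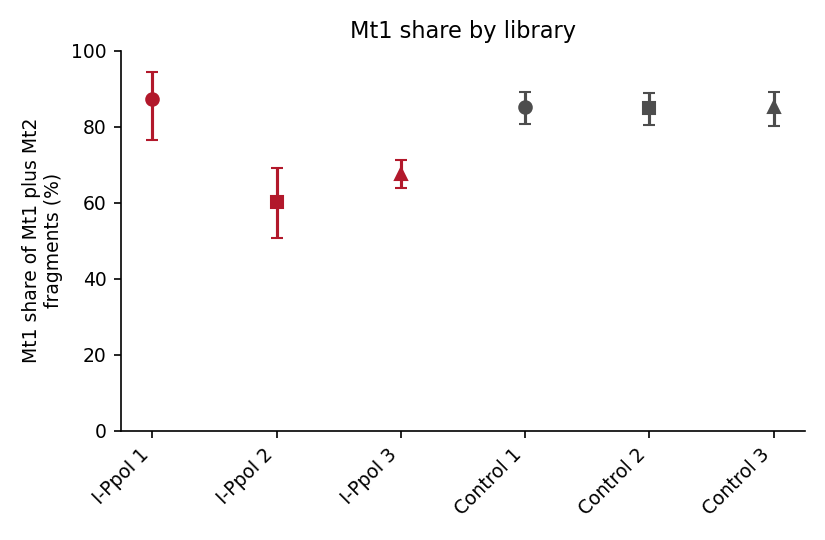
Mt1 as a percentage of the Mt1 and Mt2 fragments in each library, with 95% exact Clopper-Pearson intervals that cover counting error only. The 3 Control mice lay at 85.0 to 85.3%, I-PpoI mouse 1 at 87.3%, and I-PpoI mice 2 and 3 at 60.2 and 67.7%.

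Mt2 is not strand-clear, because the antisense gene model Gm45774 lies across it on the minus strand at chr8:94170748-94173412. Gm45774 took 134, 291 and 34 fragments in I-PpoI mice 1, 2 and 3, against 6, 9 and 6 in Control mice. It made up 94.4, 86.1 and 14% of the fragments of both strands in I-PpoI mice, against 12.5, 17.3 and 12.8% in Control mice. The antisense share of I-PpoI mouse 3 was thus inside the range of the Control libraries, and those of I-PpoI mice 1 and 2 were far above it. Fragments of Mt2 and Gm45774 cannot be told apart in those libraries, so the 2 strands were summed and set against the fragments of 1055 pairs of a coding gene and an overlapping antisense model.

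On this sum the locus stood at 452, 3060 and 359 per 1000000 pair fragments in I-PpoI mice, against 30.9, 47.1 and 33.0 in Control mice. All 3 I-PpoI libraries were above all Control libraries, with a log2 difference of 4.45, and the lowest of them was I-PpoI mouse 3. The SD of the log2 values was 1.7 in I-PpoI mice and 0.33 in Control mice. Of the 1055 pairs, 8.25% were higher without overlap, and the Mt2 pair ranked 4 from the top by its difference. Mt2 was chosen for its higher values in these same libraries, so this rank is no separate result. The same sum for Slc30a1 and its antisense model 1700034H15Rik was 557, 399 and 868 in I-PpoI mice, against 834, 900 and 815 in Control mice.

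**Figure D4:**
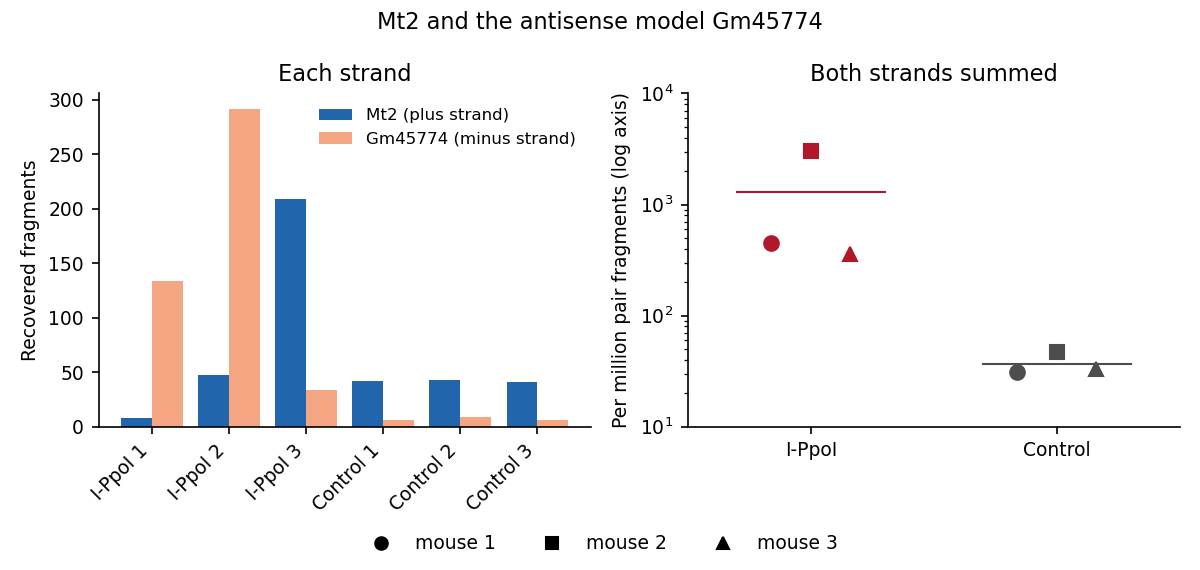
Recovered fragments of Mt2 and of the antisense model Gm45774 in each library (left), and their sum per 1000000 fragments of all coding and antisense pairs on a log axis (right, with lines at the group means). Gm45774 held most fragments in I-PpoI mice 1 and 2, and the sum was 359 to 3060 in I-PpoI mice and 30.9 to 47.1 in Control mice.

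Mt3, the isoform best known from brain, was listed at 0 FPKM in I-PpoI mice 1, 2 and 3 and in Control mice 1 and 3. Control mouse 2 had 0.533 FPKM from 8 fragments. A count of 0 allows up to 3 fragments, and no fold is given. Mt4, the isoform of stratified epithelia and a further gene of the same cluster, was listed at 0 in all 6 libraries.

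Mtf1 encodes the metal-responsive transcription factor itself. It measured 7.70, 8.17 and 1.91 FPKM in I-PpoI mice, against 3.22, 2.27 and 3.19 FPKM in Control mice. I-PpoI mice 1 and 2 were above every Control mouse and I-PpoI mouse 3 was below every one, so the groups overlapped. The means were 5.93 ± 3.49 FPKM for I-PpoI mice and 2.89 ± 0.541 FPKM in Control mice (SD, n = 3 each), and the fitted log2 difference of 0.67 (SE 0.51) became -0.41 without I-PpoI mice 1 and 2. The opposite-strand gene 1110065P20Rik, which overlaps an exon of Mtf1, moved alike, with 31.6, 23.7 and 2.90 FPKM across the I-PpoI mice and 6.28, 8.55 and 2.91 FPKM in Control mice. When scaled, Mtf1 in I-PpoI mouse 3 was 1.08 times the Control mean.

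Slc30a1 encodes the zinc exporter of the plasma membrane, a classic MTF1 target beside the metallothioneins. It measured 6.30, 1.82 and 8.06 FPKM in I-PpoI mice, against 14.7, 13.4 and 12.7 FPKM in Control mice. Every I-PpoI library was below every Control library as deposited, a pattern that 45.1% of all genes tested showed. The fitted log2 difference was -1.35 (SE 0.49), where the median over all genes tested was -0.65, and it was -0.69 without I-PpoI mice 1 and 2. When scaled, it stood at 8.91, 3.84 and 8.64 in I-PpoI mice, against 9.04, 9.05 and 8.76 in Control mice, and the groups overlapped, where 6.03% of all genes tested were lower without overlap on this scale. In I-PpoI mouse 3 the scaled value was 0.966 times the Control mean, in the same library in which Mt1 was 3.47 times and Mt2 9.47 times it. Slc30a1 was therefore not higher in any I-PpoI library beyond the Control range on either scale, while both metallothioneins were higher in all 3. In I-PpoI mice 1 and 2 the Slc30a1 values rest on 53 and 8 fragments of the annotated strand. There the antisense model 1700034H15Rik had 122 and 36, and the part of the strand shift in these values was not tested.

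**Figure D5:**
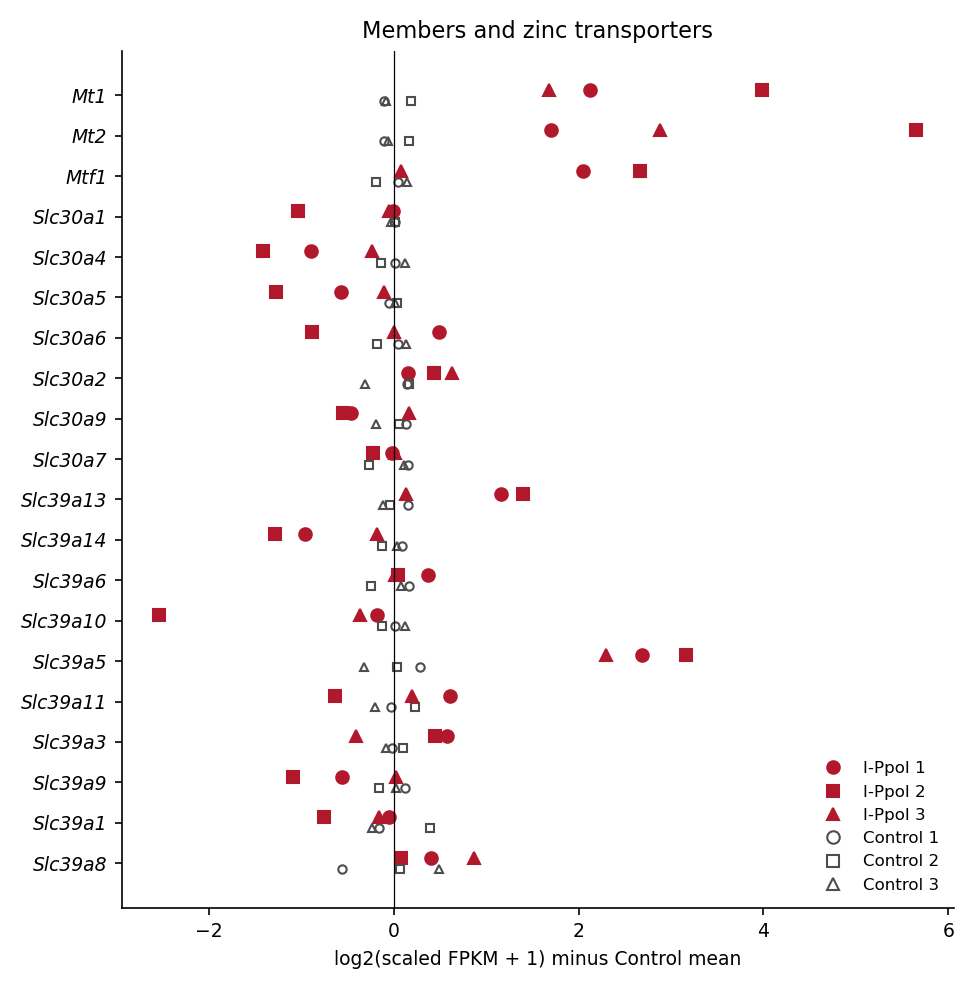
Difference of log2(scaled FPKM + 1) from the Control mean for the 4 members above the filter and the other zinc transporters tested, with filled red points for I-PpoI mice above open grey points for Control mice in each row. Mt1, Mt2 and the importer gene Slc39a5 were above all Control points in all 3 I-PpoI mice, whereas the Slc30 exporters lay near or below 0 in most.

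Of 105 other genes in 10 lists of metal handling and of known inducers of metallothioneins, 90 passed the filter. Limma with Benjamini-Hochberg adjustment called 0 of these 90 at an adjusted p of 0.05, as it called 0 of all 14962 genes (0.0%) and 0 of the 3654 strand-clear genes when scaled (0.0%). The unadjusted p was under 0.05 for 5457 genes, of which 633 were higher and 4824 lower. The voom variant of limma, run on recovered fragments, called 0 genes, and its unadjusted p was under 0.05 for 3746. Over the strand-clear genes these unadjusted counts were 344 for limma (155 higher, 189 lower) and 260 for voom, which also called 0.

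Among the other zinc exporters of the Slc30 family, 6 of 9 were tested and 0 were called. Their median log2 difference was -1.0, where that of all genes tested was -0.65, and 5 of the 6 were lower without overlap as deposited, as were 45.1% of all genes tested. When scaled, 2 of the 6 were, against 6.03% of all genes tested. Slc30a4, an exporter of vesicles, had a log2 difference of -1.68 (SE 0.46, limma adjusted p = 0.132), and Slc30a5, of the early secretory pathway, one of -1.48 (SE 0.46, adjusted p = 0.132). Slc30a9 and Slc30a7 had -1.15 and -0.85. Of the 2 strand-clear exporters, Slc30a5 was lower without overlap when scaled, as were 9.39% of the strand-clear genes. In I-PpoI mouse 3, 4 of the 6 exporters were above the Control mean when scaled, with a median log2 difference of 0.01.

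Among the zinc importers of the Slc39 family, 10 of 14 were tested and 0 were called, with a median log2 difference of -0.78. Slc39a5, an importer of the basolateral membrane of epithelia, was the one with a difference above 0. It measured 6.73, 6.44 and 6.58 FPKM in I-PpoI mice, against 1.61, 0.99 and 0.451 FPKM in Control mice. All 3 I-PpoI libraries were above the Control range and lay close together, with a log2 difference of 1.95 (SE 0.33, limma adjusted p = 0.132). When scaled it stood at 9.51, 13.6 and 7.06 in I-PpoI mice, against 0.994, 0.669 and 0.31 in Control mice. It is not strand-clear, although no annotated exon overlaps it on the opposite strand. Slc39a1, the main importer of the plasma membrane in many cells, had a log2 difference of -1.42, and Slc39a9 and Slc39a14 had -1.37 and -1.24, each with a limma adjusted p of 0.132.

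Of the other genes known as MTF1 targets, all 6 were tested and 0 were called. As deposited 0 had a log2 difference above 0, with a median of -1.30, where that of all genes tested was -0.65. Slc39a10, an importer gene that MTF1 represses, had a log2 difference of -1.81 (SE 0.66), Csrp1, a LIM-domain protein gene induced by metal, one of -1.48 (SE 0.39), and the selenoprotein genes Selenoh and Selenow had -1.46 and -1.13. On the strand-clear scale 2 of the 3 targets measured there were above 0: Gclc, which encodes a subunit of the enzyme that starts glutathione synthesis, had 0.37 (-0.67 as deposited), Selenow 0.02 and Csrp1 -0.33. Ndrg1, a stress response gene that is not strand-clear, had 35.0, 118 and 109 scaled FPKM in I-PpoI mice, against 39.8, 53.3 and 40.9 in Control mice, so that I-PpoI mice 2 and 3 were above the Control range and I-PpoI mouse 1 was below it. In I-PpoI mouse 3, 2 of the 6 were above the Control mean when scaled.

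Lists for the other metals and for known inducers of metallothioneins gave no call either. Of the tested genes, 1 of 10 for copper handling and 0 of 9 for iron handling had a difference above 0, with medians of -0.74 and -0.79. For the glucocorticoid response it was 2 of 12 with a median of -0.83, and for the oxidant response 1 of 11 with a median of -0.87. For the Il6 and Stat3 response it was 1 of 9 with a median of -0.56, and for tissue dissociation and heat shock 2 of 20 with a median of -0.64. Thus in every one of these lists most genes lay below 0 as deposited, as did the median of all genes tested.

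Among the named genes of these lists, the copper chaperone gene Atox1 had a log2 difference of -1.16 and Sco1, which serves copper delivery to cytochrome oxidase, one of -1.30. Hfe and Ireb2, both regulators of iron, had -1.93 and -1.49. The glucocorticoid receptor gene Nr3c1 had -1.63, and its target genes Tsc22d3 and Sgk1 had -1.73 and -1.89. Among oxidant response genes, Nqo1 had -1.88, the regulator gene Nfe2l2 -1.37 and thioredoxin gene Txn1 -1.56. Stat3 had -0.94 and its receptor subunit gene Il6st -1.29. The immediate early gene Ier3 had -1.42 and the chaperone gene Hspa8 -1.52. These values are as deposited, and those of the strand-clear genes among them were closer to 0 when scaled: -0.01 for Atox1, -0.94 for Hfe, -0.66 for Ireb2, -0.57 for Nr3c1 and -0.64 for Tsc22d3. Scaled values were -1.37 for Nqo1, -0.43 for Txn1, -0.19 for Il6st, -0.34 for Ier3 and -0.36 for Hspa8. Every adjusted p of this paragraph was at least 0.132 in limma.

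On the strand-clear scale, the medians were -0.25 over 2 copper handling genes and -0.31 over 4 iron handling genes. They were 0.08 over 5 glucocorticoid response genes, 0.14 over 7 oxidant response genes, -0.19 over 3 Il6 and Stat3 response genes and 0.48 over 11 dissociation and heat shock genes, where all strand-clear genes had a median of -0.03. The summed scaled FPKM of the 20 dissociation and heat shock genes was 3610, 4670 and 1690 in I-PpoI mice, against 1840, 1730 and 2420 in Control mice. I-PpoI mice 1 and 2 were above the Control range, and I-PpoI mouse 3 was slightly below it. Only 11 of these 20 genes are strand-clear, so in I-PpoI mice 1 and 2 the sum also holds genes open to the strand shift. The part of dissociation or handling in the levels of Mt1 and Mt2 was not tested. Of the strand-clear genes in the glucocorticoid, oxidant, Il6 and Stat3, and dissociation lists, 1 was higher without overlap, where 5.5% of all strand-clear genes were, and 1 was lower, where 9.39% were. The higher one was the oxidant stress gene Osgin1, at 3.30, 10.4 and 4.61 scaled FPKM in I-PpoI mice and 1.23, 1.71 and 1.47 in Control mice. The lower one was Hspa8, at 144, 129 and 155 scaled FPKM in I-PpoI mice and 188, 173 and 190 in Control mice.

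Proximal tubule and macrophage markers moved with Mt1 and Mt2 in some of the libraries. In I-PpoI mouse 3 their median log2 differences from the Control mean were 2.26 and 1.64 when scaled. There the medians were -0.41 for distal nephron, -1.14 for lymphocyte, -0.17 for mural and fibroblast, -0.58 for podocyte and -0.77 for erythroid markers. The summed scaled FPKM of 12 proximal tubule markers, none of them at 0 in every library, was 512, 2330 and 1610 in I-PpoI mice, against 488, 636 and 606 in Control mice. I-PpoI mice 2 and 3 were above the Control range. I-PpoI mouse 1 was inside it. The sum of 8 macrophage markers was 126, 523 and 236 in I-PpoI mice, against 18.8, 121 and 146 in Control mice, and I-PpoI mouse 1 was again inside the Control range. Limma called 0 of the proximal tubule and macrophage markers, and the part of these cells in the levels of Mt1 and Mt2 was not tested in any library. The mitochondrial share of fragments was 6.42, 38.2 and 48.2% in I-PpoI mice, against 8.83, 15.1 and 18.3% in Control mice.

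The genes with a pattern across the 6 libraries most like that of Mt1 were sought among 3585 strand-clear genes, by the root mean square difference of centred log2(scaled FPKM + 1) values. The closest was Tcea3, a transcription elongation factor gene, at 0.279, where the median gene was at 1.54. It stood at 7.56, 39.6 and 10.2 scaled FPKM in I-PpoI mice, against 2.07, 2.57 and 1.65 in Control mice. Apoe, the apolipoprotein gene, followed at 0.428, with 133, 573 and 135 scaled FPKM in I-PpoI mice and 36.3, 71.5 and 65.4 in Control mice. Csf2ra, a cytokine receptor subunit gene, was at 0.433, Aspdh at 0.579 and the homeobox gene Hoxc9 at 0.61. Like Mt1, all 5 were highest in I-PpoI mouse 2 and above the Control range in all 3 I-PpoI mice. They were picked for their likeness to Mt1 over these same libraries, so this shared order is no separate result.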

How the data were processed

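Endothelial cells of 6 mice, 3 I-PpoI and 3 Control by the labels, were profiled by paired-end RNA sequencing. The deposited table holds FPKM per gene, normalized by the authors to fragments and gene length. DESeq2 and the builds mm10 and GRCm38 are named in the submitters' processing notes. Not given in the sources used here are the aligner, the counter and whether counting used strand.

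FPKM multiplied by GENCODE M21 exon length gave whole fragments, within 0.05, for 98.5 to 98.6% of values under 1000 fragments. Limma 3.58.1 (R 4.3.3) was fitted to log2(FPKM + 1), which understates the change of low genes, over genes averaging at least 1 FPKM, and again to scaled FPKM of the strand-clear genes, with Benjamini-Hochberg adjustment at 0.05. FPKM are not counts, so no count model served as a main test. Limma-voom on recovered fragments was an alternative. P-values set the group difference against the spread among the libraries within groups. That spread holds differences between mice together with those of depth and strand pattern.

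The members, lists and the strand-clear set were chosen with earlier results of these data known. Named genes are the members, Mt4, up to 4 genes per pathway list by smallest p, and the 5 strand-clear genes most like Mt1, without clone names and pseudogenes. Slc39a5 falls under this rule, and Osgin1, Gm45774, the other opposite-strand genes, Gclc, Ndrg1, Ddx3y and Xist were named after their values were seen. Tables used python 3.11.15, numpy 2.4.6, pandas 2.3.3 and scipy 1.17.1, and figures matplotlib 3.10.9. Promoters came from RefSeq for all 5 members.

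To check whether equal mouse numbers mark pairs, deviations from the group means were correlated between same-numbered mice. Over strand-clear genes it was 0.2636, 0.1966 and 0.1861, and over all genes 0.089, 0.0631 and -0.0204. Mice of different numbers were not compared, so these correlations do not show that the numbers mark pairs. The labels do not tie a number to a litter or day.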

Additional observations from a re-analysis of the deposited data

How the results depend on the processing

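Mt1 and Mt2 were higher in I-PpoI mice under every alternative run. The members were chosen for this direction, and their groups did not overlap as deposited or scaled. Leaving out libraries or changing the pseudocount or filter could therefore alter the size of the difference but not its direction. In the fits over all genes the log2 differences were 1.04 to 2.31 for Mt1 and 1.54 to 3.22 for Mt2. Over strand-clear genes they were 1.5 to 3.06 for Mt1. Over all genes, median-of-ratios scaling gave 2.31 for Mt1. Summing both strands gave 4.45 for Mt2, which is a log2 difference in the share of pair fragments and thus another measure. Over strand-clear genes Mt1 was 1.5 as deposited, and 1.68 with I-PpoI mice 1 and 2 left out. Leaving out 1 library gave 1.07 to 1.74 for Mt1 and 1.54 to 3.22 for Mt2 over all genes, and 1.91 to 3.06 for Mt1 over strand-clear genes, with the lowest value of each without I-PpoI mouse 2. Mtf1 turned to -0.41 with I-PpoI mice 1 and 2 left out, a fit that takes the spread from the Control mice alone.

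Limma called 0 genes over all genes and 0 to 8438 with 1 library left out, the 8438 (2956 higher, 5482 lower) without I-PpoI mouse 3. The other genes of the pathway had 0 to 42 calls with 1 library left out, the 42 (3 higher, 39 lower) without the same library. Over strand-clear genes the range was 0 to 347, with 347 (131 higher, 216 lower) without I-PpoI mouse 3 and 32 (30 higher, 2 lower) without I-PpoI mouse 1. FPKM as deposited gave 1448 (12 higher, 1436 lower), and leaving out I-PpoI mice 1 and 2 gave 36 (34 higher, 2 lower). With the replicate block, 1 strand-clear gene was called (Eif2s3y, lower). The block with a mean-variance trend, chosen after seeing the data, called 3 (Mt1 higher, Ddx3y and Eif2s3y lower). Both lower genes are Y-linked, all Control mice had male-type transcripts, and the part of sex in these calls was not tested. The block changed no other count of calls. The cause of these shifts was not tested. Depth limits I-PpoI mice 1 and 2, where Mt2 rests on 8 and 47 fragments.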
